A study of Homo sapiens with 6 samples.

Results

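The MHC class I presentation pathway and PD-L1 were described in C4-2 prostate cancer cells through 9 genes, taken from the deposited table by their symbols: HLA-B, HLA-C, HLA-E, HLA-F, B2M, TAP1, TAP2, TAPBP and CD274. Where a symbol is listed more than once the first row was used, which applied to TAP2 alone. These are 9 of 26819 listed genes, and all 9 were among the 14833 genes tested, which reached 1 TPM in 3 or more of the 6 libraries (TPM, a unit that corrects reads for gene length and for the size of the library). C4-2 is a castration-resistant line derived from the LNCaP prostate cancer line. The Dox group comprised 3 libraries of Tet-O-YAP5SA C4-2 cells given doxycycline for 24 hours, at 0.2 mg/ml according to the labels, a unit that is in doubt because the value is high. The Ctrl group comprised 3 libraries of the same cells without the drug, so both groups carry the transgene, a doxycycline-inducible YAP1 whose LATS phosphorylation sites are mutated. No doxycycline-treated cells without the transgene were analysed here, so the effect of the drug cannot be told apart from that of YAP5SA. The labels do not say whether the replicates were separate cultures or whether the line is 1 clone, so the p-values speak for the spread of these libraries, which may be technical.

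MHC class I molecules display short peptides from inside the cell to CD8 T cells. A heavy chain, such as the classical HLA-B and HLA-C or the non-classical HLA-E and HLA-F, pairs with the invariant light chain beta-2-microglobulin, encoded by B2M. Peptides cut by the proteasome enter the endoplasmic reticulum through the TAP1-TAP2 transporter and are loaded with the help of tapasin, encoded by TAPBP. PD-L1, encoded by CD274, sits on the cell surface and restrains T cells through the receptor PD-1. Interferons raise most of these genes, in part through IRF1, and prostate cancers are known for low class I expression.

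Whole reads recovered from the TPM values came to between 24960742 and 29261886 per library. YAP1 had 263, 277 and 268 TPM in the Dox libraries, against 52.7, 57.9 and 59.9 TPM in the Ctrl libraries, with transgene and endogenous transcripts counted together. Markers of the line were present, among them FOLH1 at 1121 ± 38.7 TPM in Dox and 1083 ± 27.9 TPM in Ctrl (SD, n = 3 each). Of 10 immune cell markers 6 were listed, and 5 of these stayed under 1 TPM in every library, with CD3E at 0 in all Ctrl libraries; the summed level was 1.93 to 2.53 TPM in Dox and 2.20 to 3.32 TPM in Ctrl. Of 8 stromal and endothelial markers 6 were listed, 4 of them under 1 TPM throughout. The sum of the 6 was 12.1 to 12.8 TPM in Dox against 7.96 to 8.47 TPM in Ctrl. Of the 2 others, COL1A1 was at 8.04 ± 0.352 TPM in Dox and 6.58 ± 0.342 TPM in Ctrl. VWF was at 3.74 ± 0.226 TPM in Dox and 1.25 ± 0.116 TPM in Ctrl. The part of these markers in the results was not tested. In bulk RNA, fewer cells of a type and less RNA per cell cannot be told apart.

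Promoters of the genes are shown for the interferon-stimulated response element (ISRE), the binding site of IRF and STAT complexes. RefSeq promoter sequences of GRCh38.p14, from 250 bases before to 50 bases after each gene's start, were used for 8 of the 9 genes, all but HLA-E. The ISRE was searched on both strands as GAAA, any 2 bases and GAAA again, and stood in 6 of these 8 promoters (HLA-F, B2M, TAP1, TAP2, TAPBP and CD274) and in 3.57% of all 35116 promoters of that table. B2M, TAP1, TAPBP and CD274 each hold a pair of ISRE matches that overlap each other. Below, capitals mark ISRE matches, the TEAD letters GGAATG or CATTCC (B2M only, at the start of the gene; 14% of all promoters hold them), and the GAS letters TTCNNNGAA (CD274; in 7.66% of all promoters). TAP1 has 2 entries in the table, of which the first is used; the second holds a GAS match and no ISRE match. TEAD factors are the DNA-binding partners of YAP1, and GAS is the interferon gamma-activated site.
B2M promoter, chr15:44711267-44711566, plus strand: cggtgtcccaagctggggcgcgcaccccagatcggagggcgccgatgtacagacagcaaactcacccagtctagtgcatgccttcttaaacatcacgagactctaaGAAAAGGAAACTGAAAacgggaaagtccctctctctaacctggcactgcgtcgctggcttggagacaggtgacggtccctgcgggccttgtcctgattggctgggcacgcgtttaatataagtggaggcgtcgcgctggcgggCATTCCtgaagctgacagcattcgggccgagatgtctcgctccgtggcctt
TAP1 promoter, chr6:32853655-32853954, minus strand: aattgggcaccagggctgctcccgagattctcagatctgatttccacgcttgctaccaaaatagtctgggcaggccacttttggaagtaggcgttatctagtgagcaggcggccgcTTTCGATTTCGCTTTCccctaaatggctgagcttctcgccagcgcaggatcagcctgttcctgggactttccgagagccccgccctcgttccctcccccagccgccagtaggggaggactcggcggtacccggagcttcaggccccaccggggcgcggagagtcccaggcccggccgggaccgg
TAPBP promoter, chr6:33314029-33314328, minus strand: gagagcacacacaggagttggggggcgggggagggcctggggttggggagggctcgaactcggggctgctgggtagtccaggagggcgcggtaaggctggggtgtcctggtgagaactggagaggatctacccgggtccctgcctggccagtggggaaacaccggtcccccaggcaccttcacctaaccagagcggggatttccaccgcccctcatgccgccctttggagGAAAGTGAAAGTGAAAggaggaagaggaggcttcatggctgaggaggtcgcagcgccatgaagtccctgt
CD274 promoter, chr9:5450292-5450591, plus strand: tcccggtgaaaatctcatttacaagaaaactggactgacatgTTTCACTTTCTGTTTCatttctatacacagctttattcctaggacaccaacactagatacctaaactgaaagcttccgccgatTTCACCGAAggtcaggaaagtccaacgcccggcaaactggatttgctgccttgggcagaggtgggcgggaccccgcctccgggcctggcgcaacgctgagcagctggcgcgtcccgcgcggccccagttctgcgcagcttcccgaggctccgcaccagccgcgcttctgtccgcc
These matches are descriptions of the reference sequence. The HLA-B and HLA-C promoters hold no ISRE in these letters but have the CCAAT box, the letters CCAAT or ATTGG, found in 5 of the 8 promoters and in 34.6% of all.

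With doxycycline, 4 of the 9 genes rose, none fell and 5 did not pass the test (limma on log2(TPM + 1), Benjamini-Hochberg adjusted p under 0.05 over all tested genes). Of all tested genes, 53.7% were called, 35.9% higher and 17.8% lower in Dox, so the count of 4 of 9 is near the background and does not set these genes apart. The groups did not overlap for 5 of the 9 genes, 4 with all Dox libraries higher and CD274 with all lower. Among all tested genes 61.9% did not overlap, 40.8% with Dox above and 21.1% with Dox below. The changes were small. The log2 fold changes of the 8 genes other than CD274 lay between -0.04 and 0.25, and the median over the 9 genes was 0.10, equal at this precision to the median of 0.10 over all tested genes. The median size of change was 0.15 on the log2 scale for the 9 genes and 0.23 for all tested genes.

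**Figure D1:**
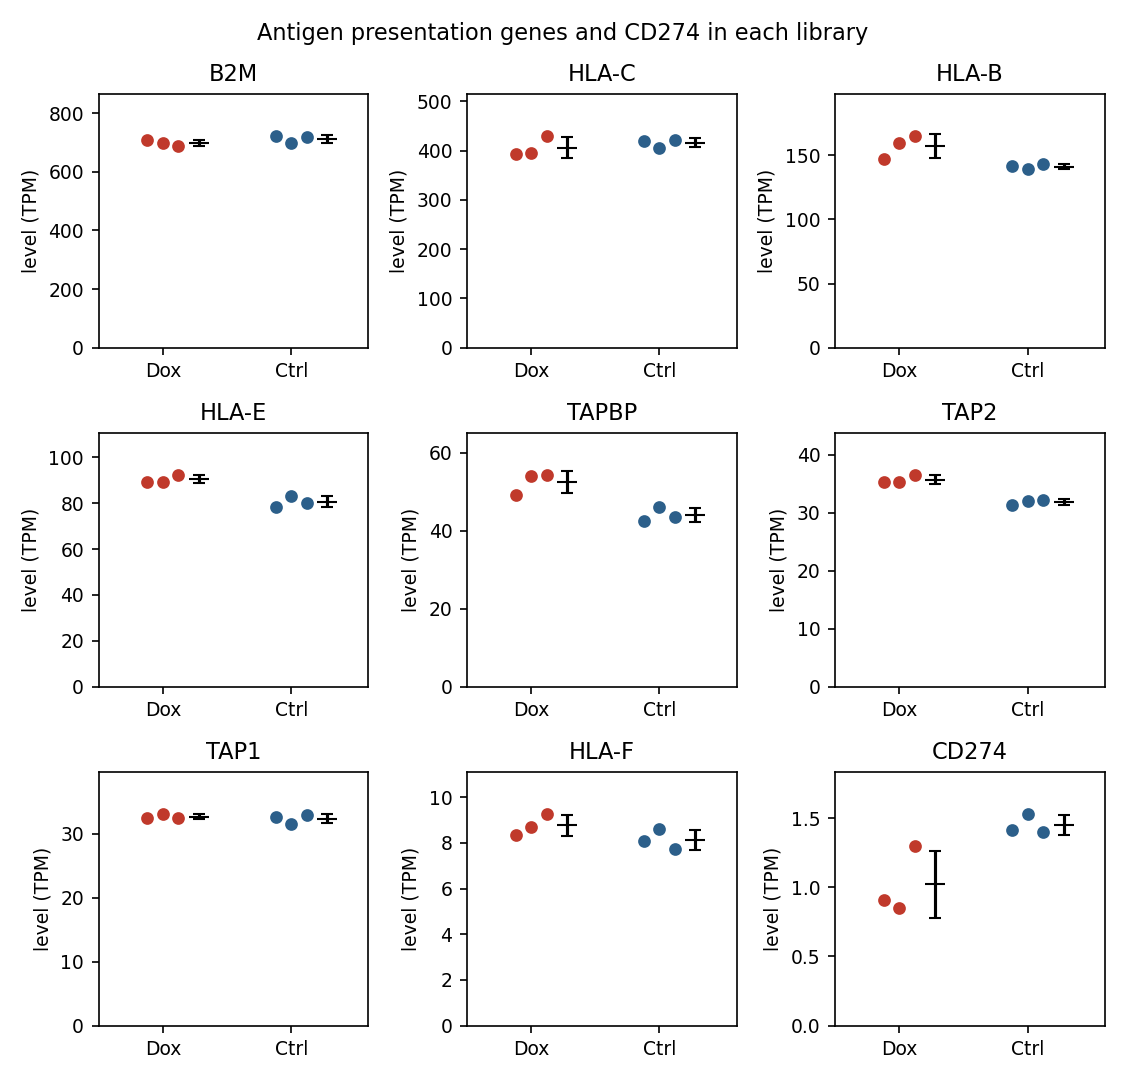
Level in TPM (y axes from 0, a scale for each gene) of the 9 genes in each Dox library (red, left) and Ctrl library (blue, right), with the mean and SD of 3 libraries beside the points. Dox points lie above all Ctrl points for HLA-B, HLA-E, TAP2 and TAPBP and below them for CD274; the other genes overlap.

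Among the classical heavy chains, HLA-B rose slightly and HLA-C did not pass the test. HLA-B (ENSG00000234745.5) was at 147, 159.8 and 165 TPM in Dox libraries 1 to 3, against 141, 139 and 143 TPM in Ctrl. All Dox libraries were higher, Dox 1 by little. The means were 157 ± 9.49 TPM in Dox and 141 ± 1.99 TPM in Ctrl (SD, n = 3 each), a log2 fold change of 0.15 ± 0.05 (SE, limma adjusted p = 0.025). HLA-C (ENSG00000204525.10), the most abundant heavy chain of the 4, was at 393, 394 and 429.9 TPM in Dox and at 420.1, 405 and 422 TPM in Ctrl. Its groups overlapped, since Dox 3 was the highest library and Dox 1 and 2 the lowest. The 95% interval of its log2 fold change ran from -0.13 to 0.06 (limma adjusted p = 0.49). The call of HLA-B was lost on either rescaling (limma adjusted p = 0.53 with median-ratio rescaling and 0.18 with quantile normalization), and without Ctrl replicate 1, 2 or 3 or Dox replicate 2 or 3 (limma adjusted p of 0.062, 0.069, 0.0515, 0.077 and 0.070).

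Of the non-classical heavy chains, HLA-E rose and HLA-F did not pass the test. HLA-E (ENSG00000204592.5), whose product is the ligand of the NKG2A receptor of natural killer cells, was at 89.3, 89.3 and 92.3 TPM in Dox, against 78.5, 83.1 and 80.0 TPM in Ctrl. The 3 Dox libraries agreed closely and lay above all Ctrl libraries (90.3 ± 1.73 and 80.5 ± 2.38 TPM; log2 fold change 0.16 ± 0.04, limma adjusted p = 0.0063). HLA-F (ENSG00000204642.9), the least abundant heavy chain of the 4, was at 8.35, 8.71 and 9.27 TPM in Dox and at 8.07, 8.59 and 7.73 TPM in Ctrl, with overlapping groups and a 95% interval of -0.06 to 0.26 (limma adjusted p = 0.26). The call of HLA-E is lost with median-ratio rescaling (limma adjusted p = 0.20) and with quantile normalization (0.11). Summed over HLA-B, HLA-C, HLA-E and HLA-F, the level was 638, 652 and 697 TPM in Dox and 648, 636 and 653 TPM in Ctrl, so the groups overlapped.

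The light chain had the highest level of the 9 genes. B2M (ENSG00000166710.13) was at 710.4, 698 and 688 TPM in Dox and at 723, 697 and 718 TPM in Ctrl. The groups overlapped, and the 95% interval of the log2 fold change was -0.09 to 0.04 (limma adjusted p = 0.42). The sign depends on the scale: B2M was called lower with median-ratio rescaling (log2 fold change -0.14, limma adjusted p = 0.024) and higher with quantile normalization (0.10, limma adjusted p = 0.0098).

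In the transporter, TAP1 did not pass the test and TAP2 rose slightly. TAP1 (ENSG00000168394.9) was at 32.5, 33.1 and 32.5 TPM in Dox and at 32.6, 31.5 and 32.9 TPM in Ctrl, the gene with the smallest change of the 9: 96.5% of all tested genes had a larger one. Its 95% interval was -0.08 to 0.11 (limma adjusted p = 0.76), but with quantile normalization TAP1 was called lower (log2 fold change -0.13, limma adjusted p = 0.036). The TAP2 row used here was at 35.4, 35.3 and 36.5 TPM in Dox, against 31.3, 32.1 and 32.2 TPM in Ctrl. All Dox libraries lay above all Ctrl libraries (35.7 ± 0.699 and 31.8 ± 0.507 TPM; log2 fold change 0.16 ± 0.04, limma adjusted p = 0.0097). The call is lost with median-ratio rescaling (limma adjusted p = 0.27), quantile normalization (0.73) and voom on recovered reads (0.066).

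That first TAP2 row, ENSG00000250264.1, is not the TAP2 gene of current annotation. In GENCODE 29 the identifier is a read-through gene named AL669918.1 that joins exons of HLA-DOB and TAP2, and 96.6% of the 50-base words of its transcripts occur in other genes. The row ENSG00000204267.9, which is TAP2 in GENCODE 29, was at 21.2, 21.2 and 21.9 TPM in Dox, against 18.6, 19.6 and 19.2 TPM in Ctrl (log2 fold change 0.16 ± 0.05, limma adjusted p = 0.022). Its call was lost on either rescaling and without Ctrl replicate 1 or 3 or Dox replicate 2 or 3 (limma adjusted p of 0.069, 0.067, 0.053 and 0.068). Recovered reads were 716, 790 and 869 in Dox and 758, 731 and 740 in Ctrl for the first row, and 1012, 1121 and 1232 in Dox and 1067, 1056 and 1041 in Ctrl for the second. HLA-DOB, the other gene of the read-through, had 1 to 3 reads in each library. Reads counted in both rows cannot be told from the table, so the rows are not independent, and the log2 fold change was 0.16 in each.

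Tapasin showed the largest rise of the 9 genes. TAPBP (ENSG00000231925.7) was at 49.1, 53.97 and 54.3 TPM in Dox, against 42.4, 46.0 and 43.6 TPM in Ctrl. Every Dox library exceeded every Ctrl library (52.4 ± 2.91 and 43.99 ± 1.82 TPM, a ratio of 1.19; log2 fold change 0.25 ± 0.05, limma adjusted p = 0.0055). Even so, 47.6% of all tested genes changed by more. TAPBP was the single member still called higher with median-ratio rescaling, where 26.7% of all tested genes were higher and 26.6% lower. With quantile normalization 23.8% of all tested genes were higher and 29.3% lower, and the limma adjusted p of TAPBP was 0.065.

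CD274 was the least abundant of the 9 and was lower in Dox without passing the test. CD274 (ENSG00000120217.9) was at 0.910, 0.852 and 1.30 TPM in Dox, against 1.41, 1.53 and 1.40 TPM in Ctrl. Dox 1 and 2 were well below Ctrl, Dox 3 just below, and the groups did not overlap. These levels rest on 28, 29 and 47 reads in Dox and 52, 53 and 49 reads in Ctrl. The means were 1.02 ± 0.244 and 1.45 ± 0.0715 TPM (SD, n = 3 each), with a log2 fold change of -0.28 ± 0.13 and a 95% interval of -0.58 to 0.01 (limma adjusted p = 0.097). On this scale the change is understated at levels near 1 TPM; the same fit with a pseudocount of 0.1 TPM gave -0.49 (limma adjusted p = 0.11). CD274 was called lower in some other fits. Without Dox replicate 3 its log2 fold change was -0.38 (limma adjusted p = 0.046), where 16.3% of all tested genes were called lower. By voom on recovered reads it was -0.55 (limma adjusted p = 0.028; 22.3% of all tested genes called lower), with quantile normalization -0.46 (limma adjusted p = 0.024), and without the variance trend -0.28 (limma adjusted p = 0.038; 16.9% called lower).

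**Figure D2:**
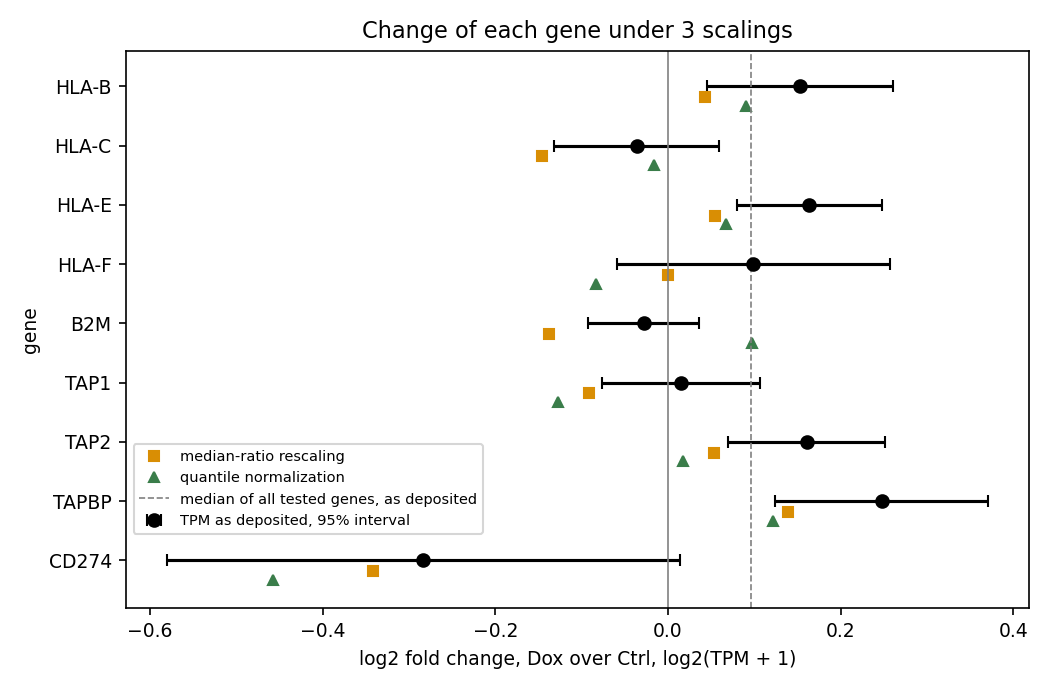
Log2 fold change of Dox over Ctrl on the log2(TPM + 1) scale for each gene, with the 95% interval of the limma fit (black), and the value with median-ratio rescaling (orange squares) and quantile normalization (green triangles); the dashed line is the median of all tested genes as deposited. Rescaling moves HLA-B, HLA-E and TAP2 towards 0, sets B2M to either side of it, and leaves TAPBP above and CD274 below it.

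Per unit of length, the order of the levels was B2M, HLA-C, HLA-B, HLA-E, TAPBP, TAP2, TAP1, HLA-F and CD274 in Dox. Ctrl had the same order, except that TAP1 (32.3 ± 0.718 TPM) and TAP2 (31.8 ± 0.507 TPM) changed places there and did not differ beyond their spread. TAP2 takes this place by its first row. The second row, the TAP2 gene of GENCODE 29, lay below TAP1 in both groups, at 21.4 ± 0.432 TPM in Dox and 19.1 ± 0.496 TPM in Ctrl. All other neighbours in the order were separated by more than their SDs. HLA-B, HLA-C, HLA-E and HLA-F are close relatives, and the classical ones have many alleles. Between 0.98% (HLA-F) and 5.4% (HLA-C) of the 50-base words of each gene's transcripts in GENCODE 29 occur in other genes. The sources used here do not say how reads that match several HLA genes, or alleles unlike the reference, were counted. The order among the HLA genes is therefore less certain than the change of each between groups.

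Ratios of 2 genes within a library do not depend on how libraries are scaled to each other. Of 10 pairs chosen, 9 could be computed; PDCD1LG2, the partner chosen for CD274, was not analysed here. With 3 libraries against 3, an exact two-sided permutation test cannot go below p = 0.1, and 0.13 is the lowest value after adjustment over the 9 ratios. How often the groups of a ratio do not overlap was not computed over pairs of all tested genes. For the levels of single tested genes, 61.9% did not overlap. The HLA-B to B2M ratio was 0.206, 0.229 and 0.240 in Dox, against 0.195, 0.199 and 0.199 in Ctrl (log2 difference 0.18, exact permutation p = 0.1). Every Dox library had a higher ratio than every Ctrl library. The same held for the HLA-E to B2M ratio (0.126, 0.128 and 0.134 in Dox, against 0.109, 0.119 and 0.111 in Ctrl; log2 difference 0.19, exact permutation p = 0.1). The HLA-C to B2M ratio was 0.581 ± 0.0383 in Dox and 0.583 ± 0.00377 in Ctrl (SD, n = 3 each; exact permutation p = 1.0). The HLA-B to HLA-C ratio was 0.387 ± 0.0166 in Dox against 0.339 ± 0.00344 in Ctrl (exact permutation p = 0.1).

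Within the loading machinery, the level of TAP1 relative to TAP2 and to TAPBP was lower in every Dox library than in every Ctrl library. The TAP1 to TAP2 ratio was 0.918, 0.939 and 0.890 in Dox, against 1.04, 0.983 and 1.02 in Ctrl (log2 difference -0.15, exact permutation p = 0.1). With the second TAP2 row, an alternative chosen after the data were seen, the ratio was 1.53, 1.56 and 1.48 in Dox, against 1.75, 1.61 and 1.72 in Ctrl, so its level depends on the row while its log2 difference was again -0.15 (exact permutation p = 0.1). The TAP1 to TAPBP ratio was 0.624 ± 0.0325 in Dox against 0.736 ± 0.0441 in Ctrl (log2 difference -0.24, exact permutation p = 0.1). PSMB9, an immunoproteasome subunit whose gene lies head to head with TAP1, was low, at 1.96, 1.93 and 2.52 TPM in Dox and 1.42, 0.811 and 1.88 TPM in Ctrl, and did not pass the test (log2 fold change 0.42, limma adjusted p = 0.083). PSMB9 was called higher by voom on recovered reads (0.67, limma adjusted p = 0.022), with the replicate block (limma adjusted p = 0.045) and without Ctrl replicate 3 (0.58, limma adjusted p = 0.031). The CD274 to JAK2 ratio was 0.112, 0.0894 and 0.184 in Dox, against 0.304, 0.256 and 0.282 in Ctrl (log2 difference -1.19, exact permutation p = 0.1). JAK2, a kinase of the interferon receptors encoded near CD274 on chromosome 9, rose to 8.23 ± 1.24 TPM in Dox, against 5.21 ± 0.695 TPM in Ctrl (limma adjusted p = 0.0051).

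**Figure D3:**
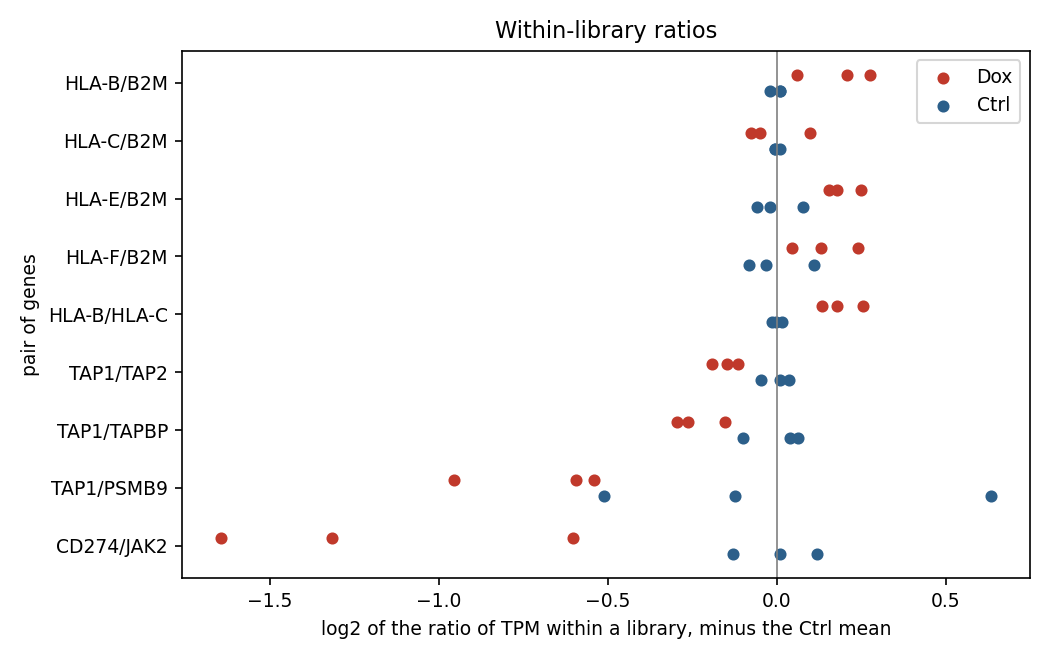
Log2 of the ratio of 2 genes' TPM within each library, minus the Ctrl mean of that ratio, for Dox (red, upper row) and Ctrl (blue, lower row). Dox and Ctrl points overlap for HLA-C/B2M and HLA-F/B2M and are separate for the other 7 pairs, with CD274/JAK2 farthest from 0. The share of separate pairs over all tested genes was not computed.

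Class I partners were called in shares near those of all tested genes (35.9% higher and 17.8% lower). This list holds genes that supply, trim or load peptides and also class I relatives such as MR1 and HFE. Among 13 tested partners of class I, 5 were higher, 3 lower and 5 not called. MR1 reached 1 TPM in the Dox libraries alone, so it had to differ. Of the other 12 partners 4 were higher and 3 lower, with a median log2 fold change of 0.11, against 0.10 for all tested genes. ERAP1, the aminopeptidase that trims peptides in the endoplasmic reticulum, rose to 10.1 ± 0.463 TPM in Dox, against 6.70 ± 0.267 TPM in Ctrl (ratio 1.51). TAPBPL, the tapasin-related peptide editor, rose to 9.57 ± 1.11 TPM in Dox, against 7.23 ± 0.0704 TPM in Ctrl, and HFE, a class I-like regulator of iron uptake, rose 1.73-fold. MR1, a class I-like molecule that presents vitamin B metabolites, was at 1.08 ± 0.0749 TPM in Dox and 0.525 ± 0.104 TPM in Ctrl. PSMB10, an immunoproteasome subunit, fell to 26.1 ± 0.778 TPM in Dox, against 43.0 ± 2.61 TPM in Ctrl (limma adjusted p = 2.8e-05). In GENCODE 29, 34.8% of PSMB10's exon bases also belong to another gene on the same strand. On the log2 scale the chaperone CANX changed by -0.12, the proteasome activator subunit PSME2 by -0.11 and the chaperone CALR by 0.16. With median-ratio rescaling the call of CALR was lost (limma adjusted p = 0.41), and with quantile normalization those of CANX (0.11), TAPBPL (0.14) and MR1 (0.17).

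Of 14 tested regulators of class I transcription, 7 were called higher, 1 was called lower and 6 were not called, beside 35.9% higher and 17.8% lower among all tested genes. With quantile normalization 4 were higher and 2 lower, beside 23.8% higher and 29.3% lower among all tested genes. The list median was 0.19, against 0.10 for all tested genes. IRF1, the interferon-induced activator of class I and CD274, was at 13.4, 13.9 and 14.4 TPM in Dox, against 5.36, 5.52 and 6.05 TPM in Ctrl. The groups lay far apart (ratio 2.46; log2 fold change 1.17 ± 0.07, limma adjusted p = 5.2e-06); 22.0% of its exon bases overlap a transcript on the other strand in GENCODE 29, and whether strand was used in counting is not stated. CREB1, which binds the X box of class I promoters, rose 1.73-fold and NFYB, a CCAAT-binding subunit, 1.70-fold, whereas NFYA fell 1.15-fold (limma adjusted p = 0.0018). NLRC5, the class I transactivator, was hardly expressed, at 0.325 ± 0.0626 TPM in Dox and 0.400 ± 0.0866 TPM in Ctrl, and CIITA, its class II counterpart, had no reads in Dox and 0 to 3 reads in Ctrl libraries. RFX5 was at 59.3 ± 1.83 TPM in Dox and 58.8 ± 4.07 TPM in Ctrl (limma adjusted p = 0.85).

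Among 13 tested interferon receptor and JAK-STAT genes, 8 were higher and 2 lower in Dox, beside 35.9% higher and 17.8% lower among all tested genes. The list median was 0.32, against 0.10 for all tested genes. STAT3, a mediator of IL-6 family cytokines, rose 1.97-fold to 102 ± 0.309 TPM, and STAT2 1.67-fold to 19.0 ± 1.30 TPM. PTPN2, a phosphatase that opposes JAK signalling, fell to 8.45 ± 0.108 TPM in Dox, against 10.97 ± 0.432 TPM in Ctrl. IFNGR1, a chain of the interferon gamma receptor, fell by 0.15 on the log2 scale, a call lost without any 1 library other than Dox replicate 1 and with the replicate block (limma adjusted p = 0.052), which leaves 1 gene of the list lower. JAK1, a kinase shared by all interferon receptors and known to be deficient in LNCaP, was at 1.248, 1.22 and 1.13 TPM in Dox, against 0.794, 0.808 and 1.01 TPM in Ctrl. These values rest on 43 to 64 reads per library, and the difference did not pass the test (limma adjusted p = 0.12), though voom on recovered reads called it (0.044).

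Of 9 tested genes among other checkpoint ligands and PD-L1 partners, C10orf54 and VTCN1 reached 1 TPM in the Dox libraries alone, so they had to differ. Of the other 7 genes 6 were higher and none lower, beside 35.9% higher and 17.8% lower among all tested genes, and their median log2 fold change was 0.39. C10orf54 (VSIR), which encodes the inhibitory ligand VISTA, was at 5.70, 5.34 and 5.48 TPM in Dox, against 0.239, 0.139 and 0.138 TPM in Ctrl (32.0-fold; log2 fold change 2.47 ± 0.10 on the log2(TPM + 1) scale, limma adjusted p = 1.0e-06). PVR, the main ligand of TIGIT, rose 2.88-fold to 66.8 ± 1.38 TPM, and PVRL2 (NECTIN2), a second such ligand, 2.01-fold to 114 ± 4.97 TPM. CD47, which inhibits engulfment by macrophages, rose 2.70-fold to 36.8 ± 3.15 TPM. VTCN1 (B7-H4) had 1.49 ± 0.209 TPM in Dox and 2 to 3 reads in each Ctrl library. CMTM6, which stabilizes PD-L1 at the cell surface, was at 65.5 ± 2.73 TPM in Dox and 67.3 ± 3.04 TPM in Ctrl (limma adjusted p = 0.52); it is called lower with median-ratio rescaling (-0.15) and with quantile normalization (-0.16). With quantile normalization PVR, PVRL2 and CD47 were higher among these 7 genes and CMTM6 was lower, beside 23.8% higher and 29.3% lower among all tested genes.

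**Figure D4:**
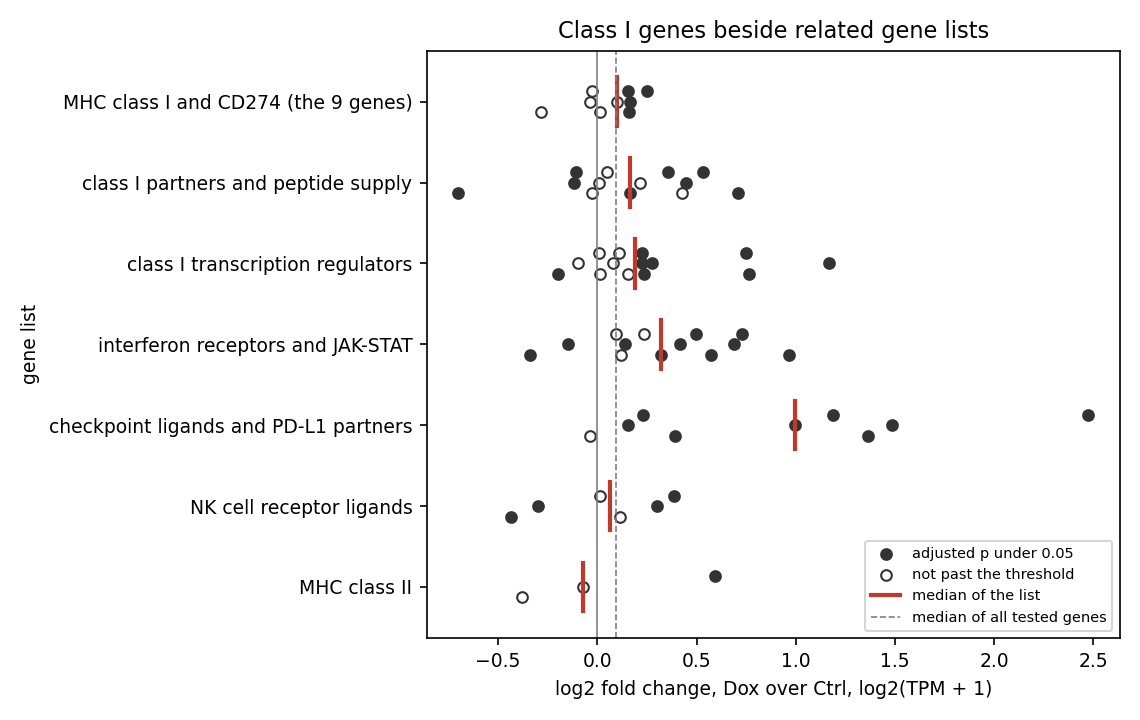
Log2 fold change of Dox over Ctrl for each tested gene of the 9 and of 6 related lists, filled where the adjusted p was under 0.05, with the list median (red bar) and the median of all tested genes (dashed line). The 9 genes lie close around the dashed line, and PVR (1.49), CD47 (1.36) and PVRL2 lie far to its right. C10orf54 (2.47), VTCN1 and MR1 passed the filter in Dox alone; the bar of the checkpoint list, drawn at 0.996, would be at 0.39 without C10orf54 and VTCN1.

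Of 6 tested ligands of natural killer cell receptors 2 were higher and 2 lower, beside 35.9% higher and 17.8% lower among all tested genes. MICA, a stress-induced ligand of NKG2D encoded close to HLA-B, rose to 194 ± 4.69 TPM in Dox, against 158 ± 8.48 TPM in Ctrl, and ULBP2, another such ligand, 1.31-fold. NCR3LG1 (B7-H6), the ligand of NKp30, fell 1.54-fold and ULBP1 fell 1.26-fold (limma adjusted p = 0.030, and 0.052 with the replicate block). On leaving out any 1 library other than Dox replicate 3, 1 of these ligands was called lower. Of 8 listed MHC class II genes 3 were tested. Of these 1 was higher, none lower and 2 not called, beside 35.9% higher and 17.8% lower among all tested genes. The 2 not called were HLA-DRA (log2 fold change -0.38, limma adjusted p = 0.12) and HLA-DPA1 (-0.07, limma adjusted p = 0.64). HLA-DMA, a class II peptide editor, rose to 8.77 ± 1.75 TPM in Dox, against 5.41 ± 0.114 TPM in Ctrl, while CD74, the invariant chain, was near 0 at 0.116 ± 0.00951 TPM in Dox and 0.156 ± 0.0773 TPM in Ctrl.

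Position in the genome was also described, by gene order in GENCODE 29. Of 128 other tested genes that lie between HLA-F and TAPBP on chromosome 6, 40 were higher and 14 lower in Dox, 42.2% in all, against 53.7% of all tested genes, and their median log2 fold change was 0.10. Among the nearest tested neighbours of CD274 on chromosome 9, PLGRKT had a log2 fold change of 0.06 (limma adjusted p = 0.26) and RLN1 of -0.004 (0.99). The others, RLN2, KIAA1432 (RIC1), ERMP1 and KIAA2026, rose by 0.44, 0.68, 0.81 and 0.79.

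The genes with the profile most like that of CD274 over the 6 libraries, by Euclidean distance of log2(TPM + 1) centred on each gene's mean, were CCDC124 (0.0789), TNK1 (0.0881) and ULBP1 (0.0908). For HLA-B they were MAPK8IP3 (0.0356), MAN2B1 (0.0386) and STK11IP (0.0410). Among the 9 genes the nearest to HLA-B was TAP2 (0.111) and the farthest CD274 (0.573).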

How the data were processed

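RNA was measured in 6 libraries (TruSeq stranded mRNA kit, per the labels' protocols), grouped by sample title. Per the submitters' processing notes, FastQC 0.11.2, STAR 2.5.3a, featureCounts and edgeR were named, with the hg19 build; the sources used here state neither the annotation release nor the strand setting. The authors deposited 1 TPM value per gene and library.

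The 9 genes, the 6 related lists and the naming rule (all 9, up to 4 called genes per list and direction, the genes of the ratios, the 3 nearest profiles of CD274 and HLA-B, and regulators near 0) were chosen with earlier results of these data known. Other genes named were chosen after their values were seen. A gene that meets the naming rule is not reported here. limma 3.58.1 in R 4.3.3 (lmFit, eBayes with trend) was fitted on log2(TPM + 1) to all genes that reached 1 TPM in 3 or more libraries, two-sided and without a replicate block. Adjustment was by Benjamini-Hochberg, with calls at 0.05. The fit was also run on simulated data, in which a small part of the genes changed, in random directions. Of the real genes 53.7% were called, so the simulation does not speak for calls that depend on the scale. Fold values without "log2" are ratios of mean TPM. Whole reads were recovered by dividing out length and a library constant, with a tolerance of 0.01 reads. All 14833 tested genes gave whole reads, 9115 of them with the GENCODE 29 exon length and 5718 with the smallest length that fitted. If all 6 reads of a gene share a divisor, its reads are too low by that factor. Depths cover counting error only: on a 1 kb gene, 3 reads equal 0.335 to 0.401 TPM. Ratios were tested with exact permutation (scipy 1.17.1). Alternatives were another pseudocount, other filters, median-ratio and quantile scaling, voom on recovered reads, a replicate block, no variance trend, leaving out mitochondrially encoded genes and leaving out each library. Figures were drawn with matplotlib 3.10.9.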

Additional observations from a re-analysis of the deposited data

How the results depend on the processing

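Median-ratio rescaling shifted the median change over all tested genes by -0.10 and quantile normalization by -0.13 (log2), so calls of small size depend on the scale. With median-ratio rescaling HLA-B (log2 fold change 0.043), HLA-E (0.055), TAP2 (0.054) and its other row (0.050) were no longer called, B2M was (-0.14), and 1 of the 9 genes was higher and 1 lower; 3964 genes were higher and 3948 lower in the whole table. With quantile normalization HLA-B (0.090), HLA-E (0.067), TAP2 (0.018) and TAPBP (0.12) lost their calls, the other TAP2 row turned to -0.00490, B2M was called at 0.10, TAP1 at -0.13 and CD274 at -0.46. There, 1 of the 9 genes was higher and 2 lower, and 3536 genes were higher and 4348 lower in all. HLA-B lost its call without the filter (0.15, limma adjusted p = 0.055) and without the variance trend (0.15, limma adjusted p = 0.061), where CD274 was called (-0.28, limma adjusted p = 0.038) as 1 of 9 lower; voom called CD274 (-0.55; 1 of 9 lower) and not TAP2 (0.13).

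Among the lists, quantile normalization left 4 class I regulators and 5 of the 9 checkpoint genes higher, beside 23.8% of all tested genes. Those 5 include C10orf54 and VTCN1, which had to differ. The stricter filter (mean of at least 5 TPM, under which CD274 was not tested) left 5 checkpoint genes higher. Under that filter 41.1% of all genes tested were higher. Regulators called lower were 2 with median-ratio rescaling, quantile normalization and voom, beside 26.6%, 29.3% and 22.3% of all tested genes. Checkpoint genes called lower were 1 with either rescaling. Without the variance trend 1 partner and 1 JAK-STAT gene were lower, beside 16.9% of all tested genes. NK ligands called lower were 1 without the filter, with the stricter filter and with the replicate block. Of all genes tested in those fits 9.05%, 21.6% and 17.6% were lower. On leaving out each library, log2 fold changes ranged from 0.12 to 0.20 for HLA-B, -0.38 to -0.22 for CD274 and 0.14 to 0.17 for the other TAP2 row. The count of the 9 genes called lower ranged from 0 to 1, that of class I partners called lower (3 with all libraries) from 1, without Ctrl replicate 3 or Dox replicate 1, to 2, that of JAK-STAT genes from 1 to 2 and that of NK ligands from 1 to 2. Between 14.9% and 16.3% of all tested genes were called lower in these fits.

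No pairing of libraries by replicate number was evident. Same-numbered libraries had correlations of their deviations of -0.00854, 0.0633 and 0.00346, and libraries of other numbers had -0.0403 to 0.0384. With the replicate block HLA-B kept its call (limma adjusted p = 0.026), the calls among the 9 genes did not change, and 1 of the JAK-STAT genes was lower in place of 2. Alternatives other than these kept the calls of the 9 genes. Counting the lists without genes that passed the filter in 1 group alone, and TAP1 against the second TAP2 row, were chosen after the data were seen.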
